A study of Mus musculus with 11 samples.

Results

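Collagen IV, the nidogens and the basement membrane proteoglycans were followed through 9 genes of mouse kidney cell preparations: the collagen IV chains Col4a1, Col4a2, Col4a3, Col4a4 and Col4a5, the nidogens Nid1 and Nid2, perlecan (Hspg2) and agrin (Agrn). They were taken by symbol from a table of 13985 genes in which all 9 are listed, and all 9 were among the 13428 genes tested. RNA came from primary kidney fibroblasts, as the labels name them, which all groups share: cells of digested C57BL/6 kidneys that were enriched in medium with serum. Kidneys taken 7 days into the model of unilateral ureteral obstruction (UUO), in which urine can no longer leave 1 kidney, gave 4 libraries, those taken at 3 days gave 4, and control kidneys gave 3. The labels do not give age or sex, nor whether replicates are separate animals, and the p-values may therefore describe a spread that is in part technical. Levels are in FPKM, a unit scaled to transcript length and library size, which can be compared between genes. The depth of the libraries is unknown.

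Basement membranes are thin matrix sheets under epithelia and endothelia and around smooth muscle, built from a laminin and a collagen IV network that nidogens and heparan sulfate proteoglycans connect. The α1 and α2 chains of collagen IV, encoded by Col4a1 and Col4a2, assemble together into the network present in nearly all basement membranes. The α3, α4 and α5 chains form a separate, more heavily cross-linked network, which in the kidney is found in the glomerular basement membrane, where podocytes make it, and in parts of the distal tubule. Loss of any of these 3 chains causes Alport syndrome.

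The preparations held transcripts of other kidney cells beside those of fibroblasts, and the summed levels of their markers differed between groups. The 12 fibroblast markers found in the table, of 13 listed, summed to 1494 to 3799 FPKM at day 7. Their sum was 489 to 1017 FPKM at day 3 and 56.0 to 69.0 FPKM in control. Col1a1, Col1a2 and Col3a1 weigh heavily on it, with means of 1236, 505 and 788 FPKM at day 7, where the sum averaged 3124 FPKM. The 15 proximal tubule markers summed to 583 to 728 FPKM at day 7, 1020 to 1865 at day 3 and 12871 to 15728 in control. Genes of the mitochondrial genome held 4.27% to 7.94% of the summed FPKM at day 7, 6.06% to 7.29% at day 3 and 25.4% to 35.9% in control. Day 3 replicate 1 also held 261 FPKM of albumin (Alb, a liver transcript chosen here after its values were seen), against at most 3.04 FPKM in the other libraries. The part of these values in the results was not tested. In such bulk samples, fewer cells of a type and less RNA per cell cannot be told apart.

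After obstruction, Col4a1, Col4a2, Nid1, Nid2, Hspg2 and Agrn rose while Col4a3 and Col4a4 fell, so the collagen IV chains moved in opposite directions. With limma on log2(FPKM + 1), 6 of the 9 genes were higher, 2 lower and 1 (Col4a5) not past an adjusted p of 0.05 at day 7, and the same split held at day 3, with the same genes in each class. These counts stand against a background in which 69.8% of all tested genes were called at day 7 (46.3% higher, 23.5% lower) and 65.3% at day 3 (44.4% higher, 21.0% lower). The median log2 fold change of the 9 genes was 0.94 at day 7 and 0.84 at day 3, beside 0.28 and 0.26 over all tested genes. The general shift depended on scaling: at day 7, 6217 genes were higher and 3162 lower as deposited. Median centring turned this into 4251 and 4654, and a TPM scale into 8559 and 1967. At day 3, 5957 were higher and 2816 lower as deposited, 3743 and 4701 with median centring, and 8246 and 1700 on the TPM scale. Both comparisons share the control libraries.

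**Figure D1:**
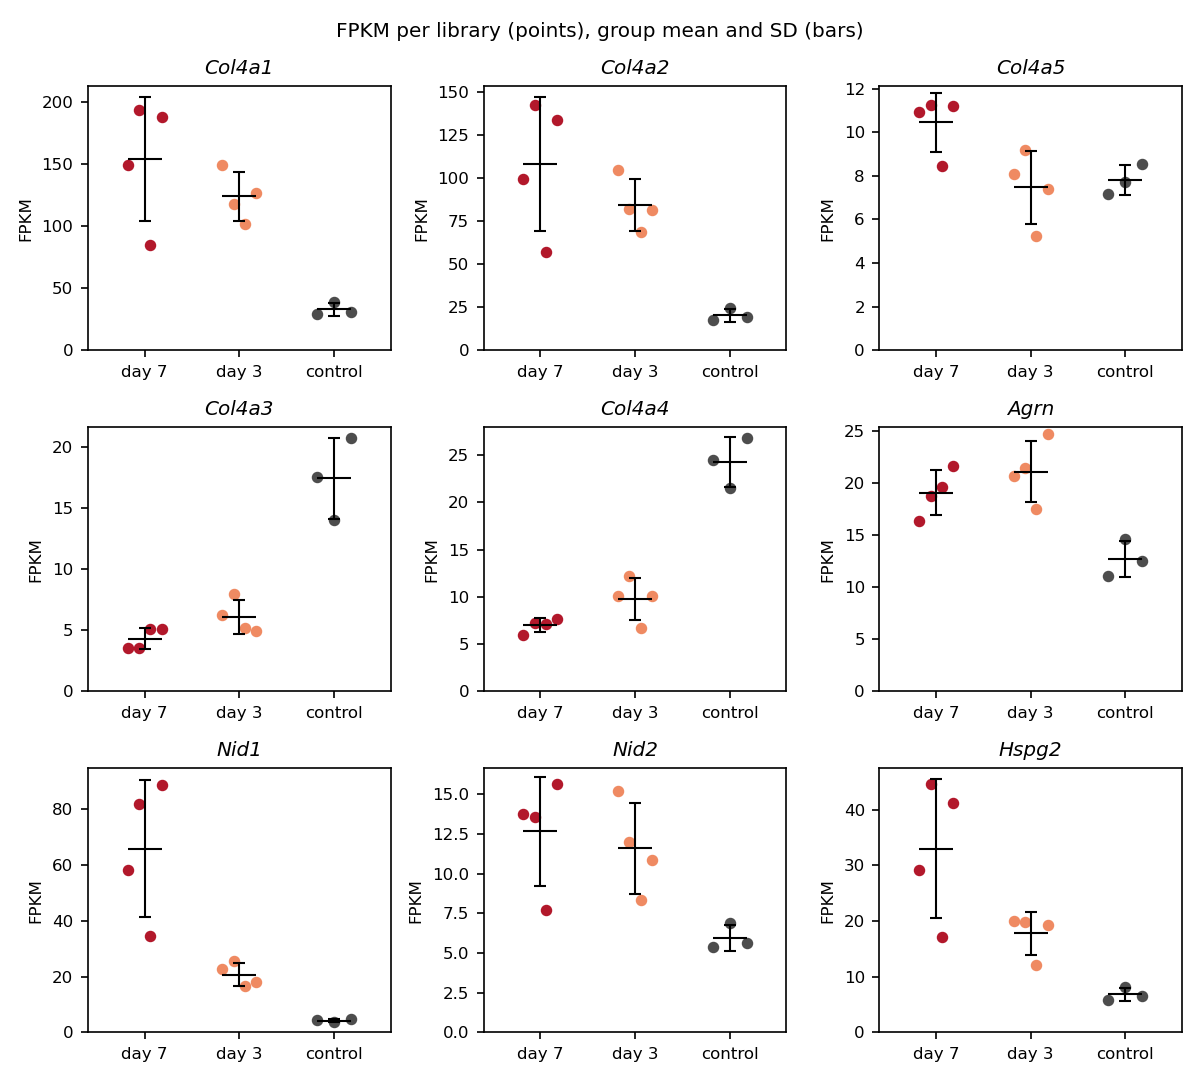
FPKM of the 9 genes in each library (points; 4 at day 7, 4 at day 3, 3 in control), with group mean and SD as bars, each panel on its own linear axis from 0. UUO libraries lie above all control libraries for Col4a1, Col4a2, Nid1, Nid2, Hspg2 and Agrn and below them for Col4a3 and Col4a4, while Col4a5 overlaps.

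**Figure D2:**
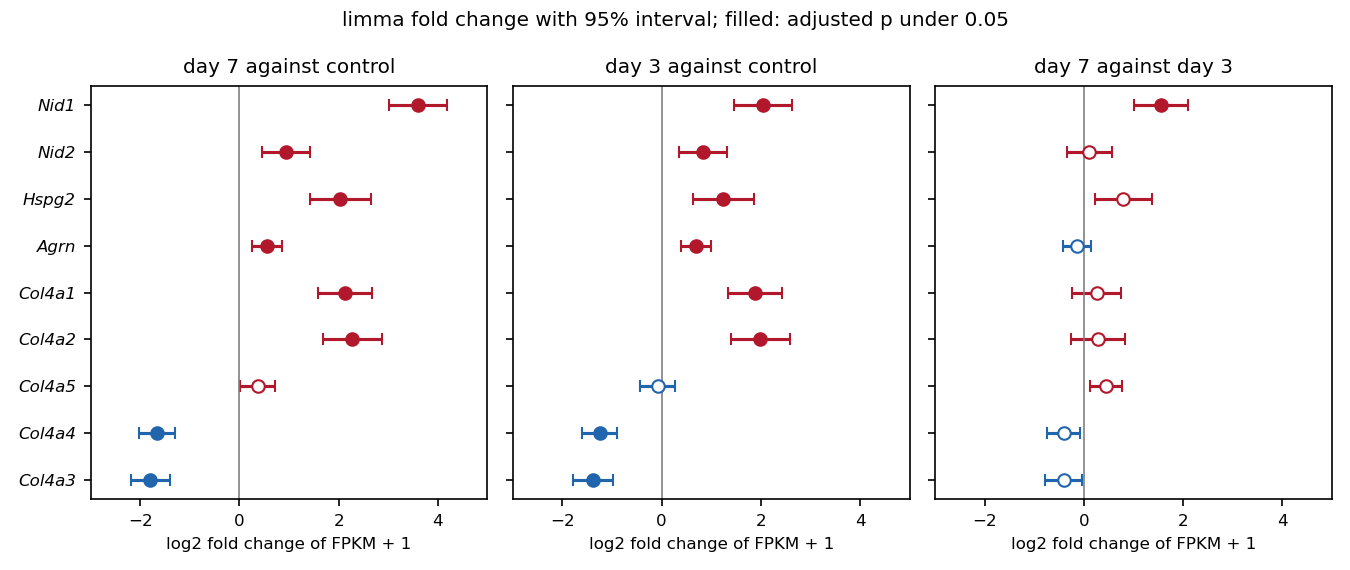
Log2 fold change of FPKM + 1 with its 95% interval from limma for each gene in the 3 comparisons, on a common axis; red points are positive, blue points negative, and filled points have an adjusted p under 0.05. Nid1 has the largest estimate of the 9 genes in each panel (3.60, 2.04 and 1.55), and it alone is filled in the comparison of day 7 with day 3.

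Col4a1 and Col4a2 lie head to head on chromosome 8 and were the most abundant of the 9 genes in both UUO groups. Col4a1 (ENSMUSG00000031502.11) spans 11198423 to 11312826 on the minus strand of GRCm38 and Col4a2 (ENSMUSG00000031503.13) 11312805 to 11449287 on the plus strand, so that their annotated 5′ ends share 22 bases. Whether the counting used strand is not stated, so reads in these 22 bases may belong to either gene. A promoter window of RefSeq for Col4a2, 250 bases before to 50 after its start (GRCm38.p6, chr8:11312555-11312854, plus strand), therefore holds both starts, that of Col4a2 at base 251 and that of Col4a1 at base 272 on the opposite strand. It is shown because both genes moved together, with capitals for matches to GGGCGG or CCAAT on either strand.
Col4a2 window: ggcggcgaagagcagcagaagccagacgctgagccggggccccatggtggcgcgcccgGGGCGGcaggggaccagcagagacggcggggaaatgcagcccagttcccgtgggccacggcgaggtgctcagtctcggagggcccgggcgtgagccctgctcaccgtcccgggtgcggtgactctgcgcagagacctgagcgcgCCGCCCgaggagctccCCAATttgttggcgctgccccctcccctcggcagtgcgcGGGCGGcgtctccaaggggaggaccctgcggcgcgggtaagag
The window holds 3 matches to GGGCGG and 1 to CCAAT, and none to TGACTCA or TATAAA. Of 32851 mouse promoter windows of the same length, 35.7% hold GGGCGG, 37.4% CCAAT, 5.2% TGACTCA and 13.6% TATAAA on either strand. A match describes the letters and is not evidence of binding.

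Col4a1 had 149, 194, 85.1 and 188 FPKM in the day 7 libraries, 149, 118, 102 and 127 FPKM at day 3, and 29.0, 39.1 and 30.8 FPKM in control. Every UUO library exceeded every control library, with day 7 replicate 3 the lowest of the UUO libraries. The log2 fold change was 2.13 at day 7 (SE 0.25, limma adjusted p = 8.59e-06) and 1.88 at day 3 (SE 0.25, adjusted p = 3.15e-05). For Col4a2 the values were 99.5, 143, 57.2 and 134 FPKM at day 7, 105, 82.0, 69.0 and 81.6 FPKM at day 3, and 17.4, 24.8 and 19.2 FPKM in control. The UUO and control libraries again did not overlap, and the libraries kept nearly the order seen for Col4a1. Its log2 fold change was 2.28 at day 7 (SE 0.27, adjusted p = 9.90e-06) and 1.99 at day 3 (SE 0.27, adjusted p = 3.83e-05).

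Col4a3 and Col4a4 form a second head-to-head pair, on chromosome 1, and both fell. Col4a4 (ENSMUSG00000067158.9) occupies 82448423 to 82586849 on the minus strand and Col4a3 (ENSMUSG00000079465.8) 82586921 to 82722059 on the plus strand, with 71 bases between their starts. The RefSeq window of Col4a4 (GRCm38.p6, chr1:82586800-82587099, minus strand) is shown for comparison with that of the pair that rose. It has the Col4a4 start at base 251 and the start of Col4a3, as the deposited table gives it, at base 179.
Col4a4 window: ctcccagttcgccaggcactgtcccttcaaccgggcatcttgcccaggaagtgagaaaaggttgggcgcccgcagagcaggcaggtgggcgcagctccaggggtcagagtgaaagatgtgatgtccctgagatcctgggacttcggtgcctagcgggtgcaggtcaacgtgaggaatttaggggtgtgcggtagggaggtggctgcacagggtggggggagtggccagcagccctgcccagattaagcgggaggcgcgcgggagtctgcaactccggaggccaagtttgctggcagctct
None of the 4 motifs searched occurs in it, which says only that these letters are absent from this window. Its GC content was 63.3%, with 14 CG dinucleotides, against 73.7% and 33 in the Col4a2 window.

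Col4a3 stood at 3.57, 3.52, 5.06 and 5.08 FPKM at day 7, at 6.24, 7.96, 5.16 and 4.93 FPKM at day 3, and at 17.5, 14.0 and 20.7 FPKM in control. Control and UUO libraries were separate, and day 3 and day 7 overlapped. It fell by 1.79 on the log2 scale at day 7 (SE 0.18, limma adjusted p = 2.56e-06) and by 1.38 at day 3 (SE 0.18, adjusted p = 2.86e-05). Col4a4 stood at 6.01, 7.22, 7.13 and 7.70 FPKM at day 7, at 10.0, 12.2, 6.73 and 10.1 FPKM at day 3, and at 24.5, 21.5 and 26.8 FPKM in control. No UUO library reached the control range. The change was −1.65 at day 7 (SE 0.16, adjusted p = 2.25e-06) and −1.25 at day 3 (SE 0.16, adjusted p = 3.04e-05).

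Markers of cells that make the α3 and α4 chains also differed. Of 12 podocyte markers, 6 were lower, 2 higher and 4 did not pass at day 7, and 7 were lower, 1 higher and 4 did not pass at day 3. Over all tested genes, 23.5% were lower at day 7 and 21.0% at day 3. The summed level of the podocyte markers was 120 to 160 FPKM at day 7, 86.8 to 118 FPKM at day 3 and 170 to 189 FPKM in control. None of these markers was at 0 in any library. Nephrin (Nphs1), of the slit diaphragm, averaged 0.382 ± 0.106 FPKM at day 7, 0.356 ± 0.247 at day 3 and 7.60 ± 0.30 in control. At day 7 Clic3 was lower, with a log2 fold change of −3.12, and Plce1 (0.63) was higher. The 15 markers of thick limb, distal tubule and collecting duct summed to 517 to 615 FPKM at day 7, 634 to 1033 FPKM at day 3 and 2284 to 2607 FPKM in control. All 15 were lower at day 7, led by Pvalb (−5.62) and Slc4a1 (−3.57, also on the red blood cell list), and 14 of 15 at day 3, and Pvalb was at 0 in a library of both UUO groups. Their part in the fall of Col4a3 and Col4a4 was not tested.

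Col4a5 (ENSMUSG00000031274.16, X chromosome, 141475385 to 141689234, plus strand), whose α5 chain enters the same trimer as α3 and α4, did not fall with them. It had 10.9, 11.2, 8.46 and 11.2 FPKM at day 7, 8.07, 9.17, 5.24 and 7.41 FPKM at day 3, and 7.18, 7.72 and 8.55 FPKM in control. The day 7 libraries overlapped control only through replicate 3, and the day 3 libraries lay around the control values. The log2 fold change was 0.37 at day 7 (SE 0.16, 95% interval 0.02 to 0.72, limma adjusted p = 0.0566) and −0.08 at day 3 (SE 0.16, interval −0.43 to 0.27, adjusted p = 0.690). Without day 7 replicate 3 the day 7 value passed (0.46, adjusted p = 0.0252), as it did without day 3 replicate 3 (adjusted p = 0.0176) or day 3 replicate 2 (0.0475) and after rescaling to TPM (0.86, adjusted p = 0.000658). At day 3 it passed as lower after median centring (−0.41, adjusted p = 0.0283) and quantile normalization (−0.37, adjusted p = 0.0481), and its sign turned after rescaling to TPM (0.32) and without day 3 replicate 3 (0.06). Col4a6, the neighbour whose start lies 1308 bases away on the opposite strand and whose α6 chain pairs with α5 outside the glomerulus, averaged 1.37 ± 0.23 FPKM at day 7, 0.916 ± 0.163 at day 3 and 0.703 ± 0.099 in control. It rose at day 7 (log2 fold change 0.47, adjusted p = 0.00176) and did not pass at day 3 (0.17, adjusted p = 0.188).

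The makeup of the collagen IV messages shifted accordingly, as ratios within a library show without regard to its scaling. Col4a1 and Col4a2 together held 92.4%, 93.9%, 87.3% and 93.1% of the FPKM of the 5 chains at day 7, 91.3%, 87.2%, 90.9% and 90.3% at day 3, and 48.6%, 59.6% and 47.2% in control. The sum of both chains was 6.89 to 15.3 times that of Col4a3, Col4a4 and Col4a5 at day 7 and 6.80 to 10.4 times at day 3, against 0.893 to 1.48 times in control. Within each head-to-head pair the ratio moved little. The ratio of Col4a1 to Col4a2 was 1.44 ± 0.07 at day 7, 1.47 ± 0.06 at day 3 and 1.61 ± 0.05 in control, and all 8 UUO libraries (1.36 to 1.56) lay under the 3 control libraries (1.57 to 1.67). That of Col4a3 to Col4a4 was 0.613 ± 0.096, 0.632 ± 0.115 and 0.714 ± 0.059, with overlapping libraries. These ratios are given as descriptions, without a test.

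**Figure D3:**
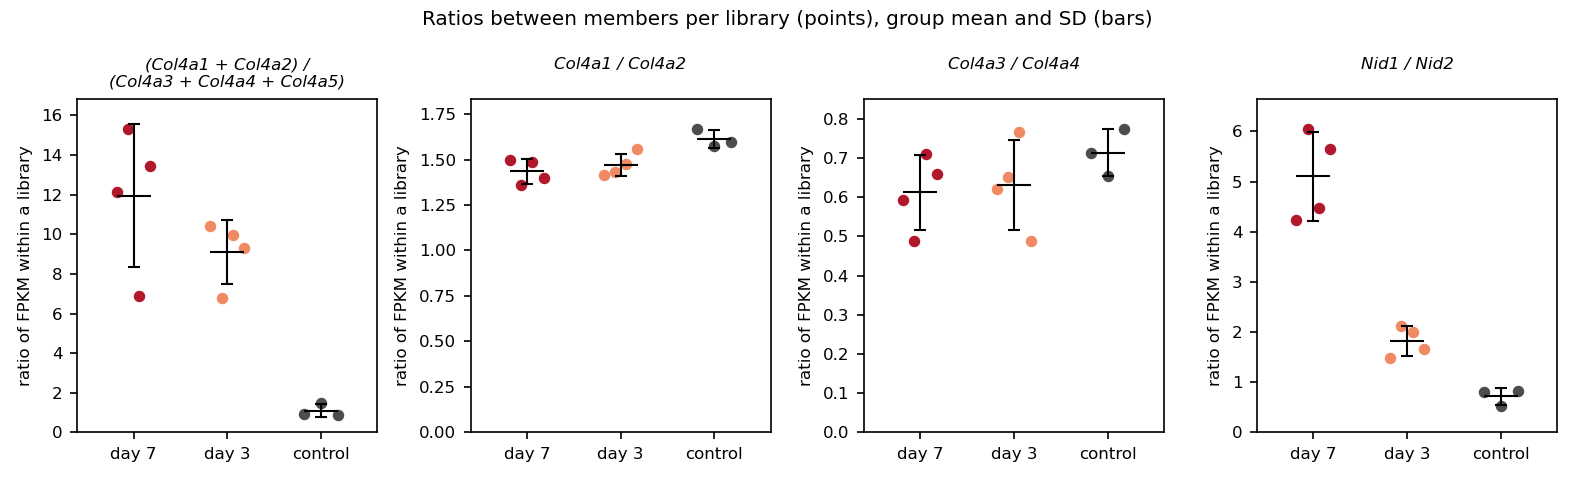
Ratios of FPKM within each library (points), with group mean and SD as bars, on linear axes from 0, for day 7, day 3 and control. The ratio of Col4a1 and Col4a2 to the other 3 chains and that of Nid1 to Nid2 separate UUO from control libraries widely, while the ratios within both head-to-head pairs stay between 1.36 and 1.67 and between 0.488 and 0.773.

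Of the nidogens, which bridge laminin and collagen IV, Nid1 showed the largest estimated rise of the 9 genes, and Nid2 rose too. Nid1 (ENSMUSG00000005397.8) lies on chromosome 13, 13437551 to 13512269, plus strand, and its RefSeq window (GRCm38.p6, chr13:13437352-13437651, plus strand) is given because of the size of its change, with the same capitals.
Nid1 window: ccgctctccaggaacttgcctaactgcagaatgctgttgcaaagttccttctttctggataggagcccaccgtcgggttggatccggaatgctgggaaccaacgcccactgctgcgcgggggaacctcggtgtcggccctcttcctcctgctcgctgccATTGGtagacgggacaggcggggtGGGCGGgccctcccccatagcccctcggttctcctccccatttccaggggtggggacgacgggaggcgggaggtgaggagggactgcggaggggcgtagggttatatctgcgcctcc
It holds 1 match to GGGCGG and 1 to CCAAT (read as its complement on this strand). Nid1 stood at 58.0, 81.8, 34.6 and 88.5 FPKM at day 7, at 22.6, 25.5, 16.6 and 18.1 FPKM at day 3, and at 4.35, 3.63 and 4.63 FPKM in control. The 3 groups did not overlap. The log2 fold change was 3.60 at day 7 (SE 0.27, limma adjusted p = 2.29e-07) and 2.04 at day 3 (SE 0.27, adjusted p = 3.07e-05), and the ratio of means to control was 15.6 and 4.92.

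Nid2 (ENSMUSG00000021806.4, chromosome 14, 19751265 to 19811787, plus strand) had 13.7, 13.5, 7.71 and 15.7 FPKM at day 7, 15.2, 12.0, 8.31 and 10.9 FPKM at day 3, and 5.35, 6.88 and 5.63 FPKM in control. UUO libraries exceeded control, by little in replicate 3 of both days. Its log2 fold change was 0.94 at day 7 (SE 0.22, adjusted p = 0.00243) and 0.83 at day 3 (SE 0.22, adjusted p = 0.00573). The day 3 call was lost after median centring (0.50, adjusted p = 0.0602) and after quantile normalization (0.54, adjusted p = 0.0539). The ratio of Nid1 to Nid2 was 4.23 to 6.04 at day 7, 1.49 to 2.13 at day 3 and 0.528 to 0.823 in control, so the more abundant nidogen message was Nid1 after obstruction and Nid2 in control.

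Among the heparan sulfate proteoglycans, both perlecan and agrin rose, with the larger estimates for perlecan. Hspg2 (ENSMUSG00000028763.17, chromosome 4, 137468769 to 137570630, plus strand) had 29.1, 44.6, 17.1 and 41.1 FPKM at day 7, 20.0, 19.8, 12.1 and 19.3 FPKM at day 3, and 5.82, 8.15 and 6.59 FPKM in control. No UUO library fell into the control range, and replicate 3 was the lowest at both days. The log2 fold change was 2.04 at day 7 (SE 0.28, limma adjusted p = 3.81e-05) and 1.24 at day 3 (SE 0.28, adjusted p = 0.00198). Agrn (ENSMUSG00000041936.18, chromosome 4, 156165290 to 156197488, minus strand), whose product is also the organizer of the neuromuscular junction, stood at 16.4, 18.7, 19.6 and 21.6 FPKM at day 7, 20.7, 21.4, 17.5 and 24.7 FPKM at day 3, and 11.1, 14.6 and 12.5 FPKM in control. The day 7 and day 3 libraries overlapped, and the control libraries lay below both. Its log2 fold change was 0.55 at day 7 (SE 0.14, adjusted p = 0.00351) and 0.68 at day 3 (SE 0.14, adjusted p = 0.000896), and the day 7 call was lost after median centring (0.25, adjusted p = 0.120). The difference between the changes of the 2 genes was not tested. RefSeq windows were found for 7 of the 9 genes, and those of Hspg2 and of the upstream Agrn start hold 5 and 12 matches to GGGCGG.

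Between day 7 and day 3, Nid1 alone passed, at a background of 15.7% of all tested genes (7.37% higher, 8.37% lower). Its log2 fold change was 1.55 (SE 0.25, limma adjusted p = 0.00170), and all 4 day 7 libraries stood above all 4 day 3 libraries. Hspg2 (0.79, interval 0.22 to 1.37, adjusted p = 0.0600), Col4a5 (0.45, interval 0.12 to 0.78, adjusted p = 0.0624), Col4a4 (−0.41, interval −0.74 to −0.07, adjusted p = 0.0959) and Col4a3 (−0.41, interval −0.78 to −0.04, adjusted p = 0.124) did not pass. The intervals of Col4a1 (−0.25 to 0.76), Col4a2 (−0.26 to 0.83), Nid2 (−0.35 to 0.56) and Agrn (−0.41 to 0.15) included 0. Several calls depended on the setting. Hspg2 passed after median centring (adjusted p = 0.0491), quantile normalization (0.0331) and rescaling to TPM with (0.0487) or without mitochondrial genes (0.0437). Col4a5 passed after median centring (adjusted p = 0.0333), quantile normalization (0.0280) and rescaling to TPM (0.0453). Without day 7 replicate 3, Hspg2 (1.07, adjusted p = 0.00355) and Col4a5 (0.54, adjusted p = 0.0358) passed too. Col4a5 also passed without day 3 replicate 2 (0.55, adjusted p = 0.0433), and Col4a4 passed as lower without day 3 replicate 3 (−0.56, adjusted p = 0.00845). Without both day 7 replicate 3 and day 3 replicate 1, a setting chosen after seeing the data, 5 genes were higher, among them Col4a1 (0.61, adjusted p = 0.0308) and Col4a2 (0.67, adjusted p = 0.0282).

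Libraries of a group differed in a common way. Day 3 replicate 3 was the lowest of its group for 8 of the 9 genes, all but Col4a3, and day 7 replicate 3 for 6, all but Col4a3, Col4a4 and Agrn. Both libraries also had the lowest fibroblast marker sums of their groups, 1494 FPKM against 3542 to 3799 at day 7 and 489 FPKM against 729 to 1017 at day 3. The endothelial marker sum was likewise lowest in them, 148 FPKM against 197 to 241 at day 7 and 210 FPKM against 215 to 236 at day 3. So were the sums of proximal tubule markers (583 FPKM at day 7, 1020 at day 3) and of thick limb, distal tubule and collecting duct markers (517 and 634). The macrophage sum was instead the highest of its group in both libraries, 6267 FPKM against 5503 to 5866 at day 7 and 7377 FPKM against 4483 to 5465 at day 3. The podocyte sum was also highest in both (160 FPKM at day 7, 118 at day 3). Whether these sums account for the spread was not tested.

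The order of levels changed between groups. At day 7 Col4a1 (154 ± 49.9 FPKM), Col4a2 (108 ± 38.9), Nid1 (65.7 ± 24.6), Hspg2 (33.0 ± 12.5) and Agrn (19.1 ± 2.18) followed each other with overlapping neighbours, and Nid2, Col4a5, Col4a4 and Col4a3 lay below. At day 3 Col4a1 (124 ± 19.6 FPKM) and Col4a2 (84.4 ± 15.0) overlapped each other and stood above all others, which overlapped from one to the next down to Col4a3 (6.07 ± 1.38). In control Col4a1 (33.0 ± 5.35 FPKM) stood above Col4a4 (24.3 ± 2.66), which overlapped Col4a2 (20.5 ± 3.85), as that did Col4a3 (17.4 ± 3.33). Nid1 (4.20 ± 0.52 FPKM) was the lowest of the 9 genes there, below Nid2 without overlap.

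Transcripts of the 9 genes were tested over the whole table of transcripts. Of 15 listed, 4 were higher, 2 lower, 8 not past the threshold and 1 too low to be tested, at day 7 and likewise at day 3, at a background of 45.6% of transcripts called at day 7 (29.1% higher, 16.5% lower) and 41.2% at day 3 (27.6% higher, 13.7% lower). Nid1-201, Col4a2-201, Hspg2-201 and Agrn-206 were the 4 higher and Col4a3-201 and Col4a4-201 the 2 lower transcripts at both times. Agrn-206 stood at 21.6 FPKM at day 7, 25.3 FPKM at day 3 and 13.1 FPKM in control on average, and it starts at the upstream of the annotated Agrn starts. Only Nid1-201 passed between the days (1.56, adjusted p = 0.0120), at a background of 4.26% (2.25% higher, 2.01% lower). Col4a1-201 did not pass at day 7 (1.14, adjusted p = 0.106) or day 3 (0.91, adjusted p = 0.197), although its gene did. It had 168, 53.5, 95.8 and 52.5 FPKM at day 7, 39.4, 37.2, 115 and 143 FPKM at day 3, and 32.7, 44.0 and 34.7 FPKM in control. In day 7 replicates 2 and 4 and day 3 replicates 1 and 2 the Col4a1 transcripts listed summed to 26.9% to 32.0% of the gene value, against 113% to 115% in the other 7 libraries. The gene value itself was not low in those 4 libraries, and other transcripts of Col4a1 were not analysed here. Nid2-201, the only listed transcript of Nid2, did not pass either, although its gene did. Its log2 fold change was 0.99 at day 7 (limma adjusted p = 0.104) and 0.57 at day 3 (adjusted p = 0.354). It had 13.6 FPKM beside a gene value of 13.7 in day 7 replicate 1, and 6.11 beside 13.5 in day 7 replicate 2.

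Genes with the most similar profiles were named by the smallest root mean square difference, over the 11 libraries, between log2(FPKM + 1) profiles each centred on its own mean, among 8291 other genes with at least 5 FPKM in a group. Mlkl, a mediator of necroptosis, was nearest to Col4a1 (0.203) and Col4a2 (0.237), followed by the galectin Lgals1 (0.221) and Aldh18a1 (0.221) for Col4a1 and Gpr153 (0.238) and Ckap4 (0.244) for Col4a2. Nid1 was nearest to the metalloproteinase Adam12 (0.196), Cygb (0.204) and the serine protease Htra3 (0.206). Nid2 was nearest to the endothelial cadherin Cdh5 (0.149), 2310022B05Rik (0.172) and the laminin chain Lamb1 (0.180), and Hspg2 to Cavin3 (0.162), Hic1 (0.189) and Pxdn (0.198), the peroxidasin that cross-links collagen IV. Col4a3 was nearest to Flrt1 (0.137), Acss1 (0.138) and Slc25a15 (0.153), and Col4a4 to Vwa8 (0.0954), the respiratory chain subunit Sdha (0.0989) and Ak3 (0.103). For Col4a5 they were Creb3l2 (0.110), Zfp503 (0.142) and Prnp (0.150), and for Agrn Cyb561a3 (0.0726), Ulk1 (0.0778) and Atf6b (0.0951). These are descriptions over libraries that share the split between UUO and control. The added 1 also compresses changes of genes that are low in control, so near profiles can hold unlike ratios. Adam12 averaged 9.91 FPKM at day 7 and 0.0965 in control, and Mlkl 6.36 and 0.753 FPKM.

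Enzymes that modify, fold and export collagen were mostly higher. Of 22 tested, 18 were higher and 2 lower at day 7 and 16 and 2 at day 3, and 9 were higher at day 3 after median centring. Over all tested genes, 46.3% were higher and 23.5% lower at day 7, and 44.4% and 21.0% at day 3. The list's median log2 fold change was 1.52 at day 7 and 0.73 at day 3. Fkbp10, a prolyl isomerase of procollagen folding, averaged 38.1 ± 16.2 FPKM at day 7, 12.3 ± 2.89 at day 3 and 1.37 ± 0.24 in control (log2 fold change 3.91 at day 7). P4ha3, a subunit of prolyl 4-hydroxylase, changed by 2.61 at day 7. Pxdn, whose product forms the sulfilimine bonds between collagen IV trimers, averaged 11.3 ± 3.22 FPKM at day 7, 5.60 ± 0.80 at day 3 and 1.51 ± 0.08 in control (2.24, adjusted p = 9.61e-07 at day 7). The collagen chaperone Serpinh1 averaged 153 ± 32.1, 91.3 ± 25.0 and 51.6 ± 2.97 FPKM (1.53 at day 7). The falls were those of P3h2, the prolyl 3-hydroxylase with known activity on collagen IV, at 16.8 ± 0.78 FPKM at day 7, 29.1 ± 6.44 at day 3 and 40.4 ± 0.91 in control (−1.22 at day 7), and Colgalt2 (−1.43). Between the days, 11 were higher at day 7 and 1 lower, beside 7.37% and 8.37% of all tested genes.

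Laminin chains are the partners of collagen IV in the sheet. Of 10 tested, 5 were higher and 2 lower at day 7, and 4 and 1 at day 3 (median 0.38 and 0.13). The higher shares are near those over all genes, 46.3% at day 7 and 44.4% at day 3, and so is the lower share at day 7 (23.5%). Lama4 rose by the most, with 8.53 ± 3.08 FPKM at day 7, 2.75 ± 0.59 at day 3 and 0.601 ± 0.078 in control (2.50 at day 7), followed by Lamc1 (1.84), the γ1 chain to which nidogen binds. Lama3 (−0.57) was among the falls at day 7. After median centring 4 were lower at day 7, and none was after rescaling to TPM.

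Of 22 other basement membrane proteins tested, 12 were higher and 4 lower at day 7, and 13 and 2 at day 3 (median 0.51 and 0.57). At day 7 this is close to the shares over all genes of 46.3% higher and 23.5% lower. The largest rises at day 7 were those of Fbln2 (4.37), a fibulin that binds nidogen, and Sparc (3.73), a collagen-binding glycoprotein that averaged 738 ± 244 FPKM at day 7, 225 ± 39.7 at day 3 and 52.1 ± 8.53 in control. Tinag, a tubular basement membrane antigen, showed the largest fall, with 11.5 ± 1.87 FPKM at day 7, 20.7 ± 5.19 at day 3 and 37.5 ± 8.48 in control (−1.61), followed by Vwa1 (−1.18), whose product binds perlecan.

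Of 17 tested receptors for basement membranes and other matrix, 8 were higher and 4 lower at day 7, and 4 and 1 at day 3 (median 0.24 and 0.17). The day 7 split is that of all genes (46.3% and 23.5%), and both day 3 counts are below the shares over all genes (44.4% and 21.0%). After median centring 4 were higher at day 7, and after rescaling to TPM 10 were higher at day 3. Ddr2 (2.45) and the integrin chain Itga11 (2.18), both known mainly as receptors of fibrillar collagens, rose by the most at day 7. Itga3 (−0.77), part of a laminin receptor, and the syndecan Sdc4 (−0.71) fell. The collagen IV binding integrin chain Itga1 did not pass (0.23), nor did Lrp4 (0.00), the agrin receptor, or Dag1 (0.24), to which agrin and perlecan bind.

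All 20 tested genes of basement membrane cleavage and its inhibition were called at day 7 and at day 3, 18 higher and 2 lower each time (median 2.30 and 1.85). Over all tested genes, 46.3% were higher and 23.5% lower at day 7, and 44.4% and 21.0% at day 3. Timp1 (6.54) and the gelatinase Mmp2 (4.65), which degrades collagen IV, led the rises at day 7, and Mmp2 averaged 97.0 ± 32.6 FPKM at day 7, 13.1 ± 2.57 at day 3 and 2.71 ± 0.44 in control. The falls were those of the inhibitor Timp3 (−0.85) and of Prss12 (−0.34), the agrin-cleaving neurotrypsin. Of 21 genes of heparan sulfate synthesis and editing, 13 were higher and 3 lower at day 7 and at day 3 (median 0.70 and 0.55), with 6 lower at either time after median centring. As deposited, the lower share of this list was below that over all genes at both times. The sulfatases Sulf1 (3.00) and Sulf2 (2.10) rose by the most at day 7, and Hs3st6 (−1.15) and Hs3st3a1 (−0.62) fell.

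**Figure D4:**
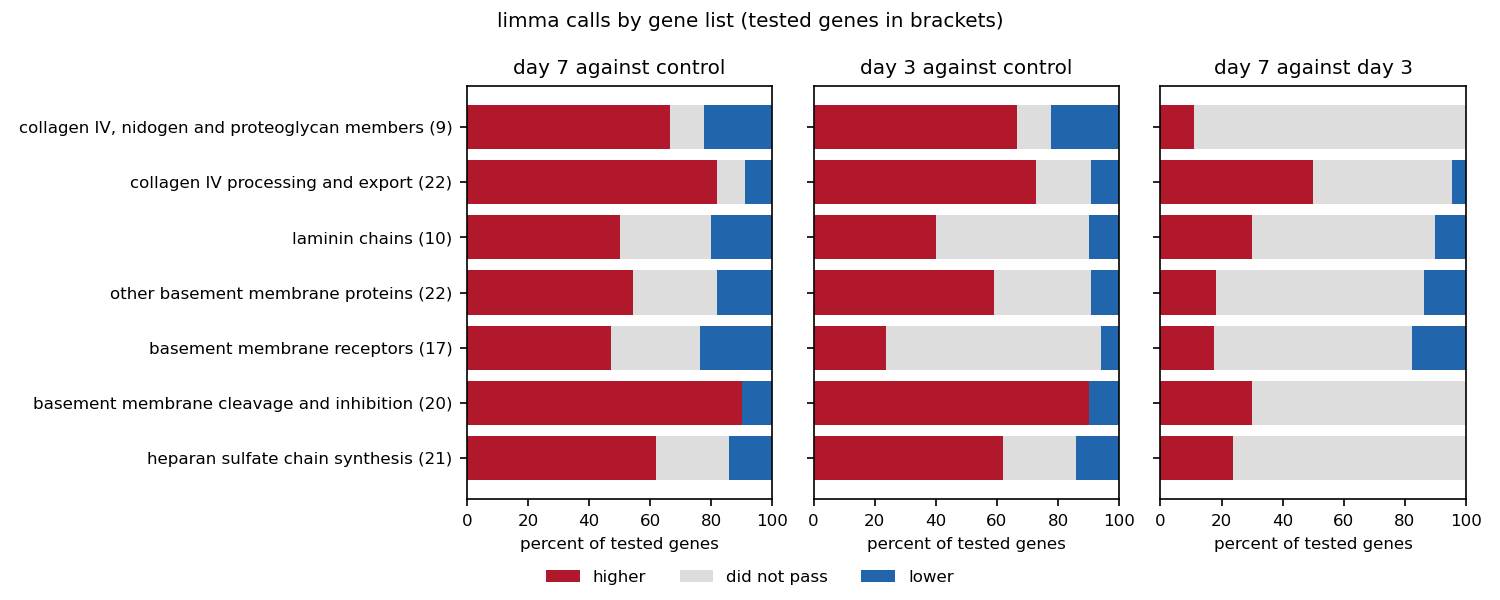
Share of the tested genes of each list, in percent, that limma called higher (red), lower (blue) or that did not pass (grey) in the 3 comparisons, with the number tested in brackets. The lists of cleavage and of collagen processing have the largest higher shares at day 7 (18 of 20 and 18 of 22), against a background of 46.3% of all genes.

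Markers of cells that could supply the rising genes moved to different extents. The counts below stand beside shares over all tested genes of 46.3% higher and 23.5% lower at day 7, and 44.4% and 21.0% at day 3. All 12 tested fibroblast markers were higher at day 7, led by Col1a1 (6.18) and Col3a1 (6.05), and 11 of 12 at day 3. The 15 endothelial markers summed to 148 to 241 FPKM at day 7, 210 to 236 FPKM at day 3 and 163 to 213 FPKM in control. Of them 4 were higher, with Cdh5 (0.98) and Vwf (0.85), and 3 lower at day 7, with Ehd3 (−1.69) and Cldn5 (−0.63), and at day 3 the counts were 6 and 4. The 11 mesangial, pericyte and smooth muscle markers summed to 90.4 to 139 FPKM at day 7, 65.2 to 88.8 FPKM at day 3 and 120 to 134 FPKM in control. Ren1 alone averaged 23.1 FPKM at day 7, 23.1 at day 3 and 78.2 in control, so it weighs heavily on this sum. The median log2 fold change of the 11 markers was 0.41 at day 7 and 0.20 at day 3. Of these markers 5 were higher, with Pdgfrb (2.16) and Cnn1 (1.72), and 2 lower at day 7, Ren1 (−1.73) and Itga8 (−0.62), and at day 3 there were 2 and 3. At neither time did the higher share of the endothelial list or of this list exceed that over all genes. All 15 macrophage markers were higher at both times, led by Itgam (5.06) and Mrc1 (4.55) at day 7, with a sum of 5503 to 6267 FPKM at day 7, 4483 to 7377 FPKM at day 3 and 716 to 1079 FPKM in control. All 15 proximal tubule markers, led by Miox (−5.27) and Kap (−4.64), and all 6 red blood cell markers, led by Hba-a2 (−5.68) and Hbb-bs (−5.45), were lower at both times. Of 11 injured tubule markers 7 were higher at day 7, led by Havcr1 (5.16) and Lcn2 (3.46), and 1 lower, Krt7 (−0.51), and at day 3 the counts were 8 and 0. Of 5 tested mesothelial markers 3 were higher at day 7, led by Krt19 (2.11, also on the injured tubule list) and Msln (1.62). At day 3 the 1 higher was Krt19, and the 2 lower were Upk3b and Wt1, the latter also on the podocyte list. The 2 tested adipocyte markers, Adipoq (1.54) and Fabp4 (0.76), and the only tested glial marker, S100b (1.13), were higher at day 7, and 1 and 0 of them at day 3. The part of these cells in the changes of the 9 genes was not tested.

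**Figure D5:**
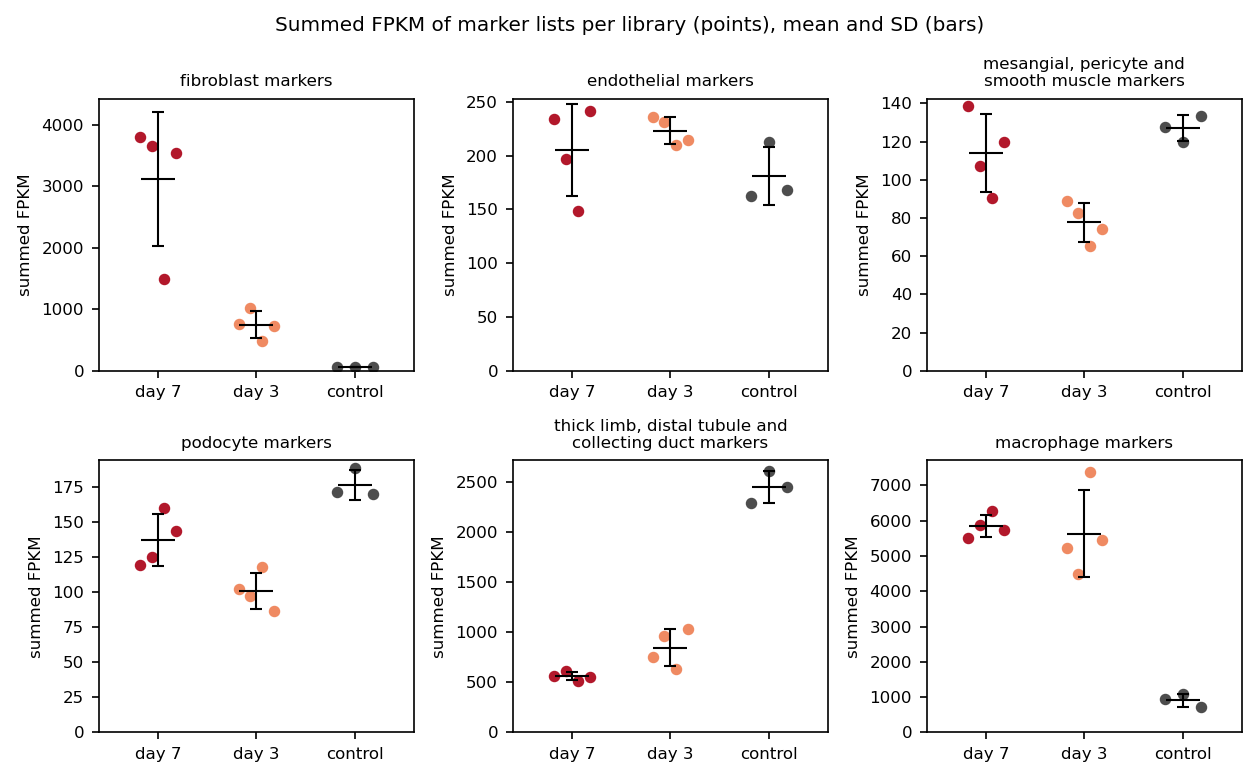
Summed FPKM of 6 marker lists in each library (points), with group mean and SD as bars, on linear axes from 0, for day 7, day 3 and control. Fibroblast and macrophage sums are higher in all UUO libraries than in control, podocyte and distal nephron sums are lower, and endothelial sums overlap.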

How the data were processed

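The 11 samples were sequenced from stranded libraries, per the labels' protocols. Values are FPKM per gene and per transcript as the authors deposited them, per the file headers. GRCm38, HISAT2, StringTie and cutadapt are listed in the submitters' processing notes, with no version or role. Neither the annotation release nor the strand setting is given in the sources used here. Of 13985 gene identifiers, 12271 matched GENCODE M21 and all of these had its coordinates, including the 9 genes described. Groups and replicate numbers came from the sample titles. The tables hold no counts, so library depth is not known and counting error cannot be given.

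Genes averaging 0.5 FPKM or more were tested as log2(FPKM + 1) with limma 3.58.1 in R 4.3.3, in 1 model of 3 groups with a mean-variance trend, with Benjamini-Hochberg adjustment over all 13428 genes (23910 of 26807 transcripts) and a threshold of 0.05. Fold changes refer to this scale, which understates changes of low genes. The 9 genes and the 18 other lists (6 of companion genes, 12 of markers) were chosen with earlier results of these data known. In lists, up to 2 called genes with the largest and smallest change at day 7 were named, and genes acting on the 9; some results under this rule are not reported here. Of 17 symbols held by 2 identifiers, the more abundant was used. The fit was tested on simulated data. Same-numbered libraries did not deviate together in every pair, so numbers were not used as a block. Alternatives were another pseudocount (0.1), other filters, 4 scalings, moderation settings, both groups alone, a block and leaving out each library. Promoter sequences are from RefSeq. Figures were drawn with matplotlib 3.10.9 in Python 3.11.15, with pandas 2.3.3 and numpy 2.4.6.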

Additional observations from a re-analysis of the deposited data

Results flagged for a closer look

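Of 54 groups of 4 libraries tested for a single library far from the others, 4 were marked, where chance marks about 1 in 20. Col4a5 at day 7 was 8.46 FPKM in replicate 3, against 10.9 to 11.2 FPKM in the other 3 libraries. Hspg2 at day 3 was 12.1 FPKM in replicate 3, against 19.3 to 20.0 FPKM in the others, and its transcript Hspg2-201 was 10.7 FPKM there, against 17.3 to 17.9 FPKM. The transcript Agrn-201, which was 0 in all 3 control libraries, reached 4.26 FPKM in day 7 replicate 4 and at most 0.530 FPKM elsewhere.

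The effect on Nid1 differed between the times after surgery, with a log2 fold change of 1.55 for day 7 against day 3 in limma (adjusted p = 0.00170), higher in 4 of 4 day 7 libraries.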

How the results depend on the processing

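Against control, the 6 higher and 2 lower genes kept their side of the threshold in each setting tried, except Nid2 at day 3 (median centring and quantile normalization) and Agrn at day 7 (median centring), while Col4a5 entered in some settings. Leaving out 1 library gave 6 to 7 higher genes at day 7 and 6 at day 3, and 2 lower ones. Between the days, where 1 gene was higher and 0 lower as reported, 3 (with Hspg2 and Col4a5) were higher after median centring, quantile normalization or rescaling to TPM, 2 (with Hspg2) after rescaling to TPM without mitochondrial genes, and 5 without day 3 replicate 1 and day 7 replicate 3. Leaving out 1 library gave 1 to 3 higher and 0 to 1 lower. The cause was not tested. Over all genes, 2114 were called between the days as reported, and 1344 to 2600 with 1 library left out (1374 without day 7 replicate 1, 1344 without day 7 replicate 4), against 7962 to 8858 at day 3 and 8705 to 9504 at day 7. Transcripts called numbered 6 to 7 at day 3, 5 to 7 at day 7 and 1 to 2 between the days. The sign turned for Col4a5 at day 3 (0.32 after rescaling to TPM, and −0.17 to 0.062 with 1 library left out, above 0 without day 3 replicate 3) and for Nid2 between the days (−0.031 to 0.31 with 1 library left out, below 0 without day 3 replicate 3 or day 7 replicate 4).

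With the replicate number as a block, 2 genes were higher between the days, since Hspg2 passed (0.79, adjusted p = 0.0138), and no other call of the 9 genes changed. Whether the numbers pair the libraries is not stated in the labels and is not settled by these values. Of 10 same-numbered pairs, 6 had deviations that correlated above 0.1 (−0.138 to 0.428). A library correlated best with its own number in 11 of 20 cases, more than an even pick among the 3 or 4 libraries of a group would give. These cases read the 10 pairs from both sides and are not independent. The highest correlations were between unlike numbers, day 3 replicate 4 with control replicate 2 (0.523) and day 7 replicate 2 with day 3 replicate 4 (0.464). Of 2484 counts over the other lists under alternatives, 2335 stayed within 1.5 times the reported count.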
